A study of Mus musculus with 144 samples.

Results

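The 10 genes described here carry out or govern glucose production in the liver, and their rows were read in every RNA-Seq library of a culture study of mouse primary hepatocytes, out of 55359 genes in the files. *Pcx*, *Pck1*, *Fbp1* and *G6pc* encode the enzymes of gluconeogenesis that bypass the irreversible steps of glycolysis. *Slc37a4* and *Slc2a2* encode transporters on the way of glucose out of the cell, *Tat* and *Sds* encode enzymes that feed amino acids into the pathway, and *Foxo1* and *Ppargc1a* encode a transcription factor and a coactivator that regulate it. The genes were chosen by name and not by their values, and all 10 were found in every file. Their Ensembl identifiers are ENSMUSG00000024892 (*Pcx*), ENSMUSG00000027513 (*Pck1*), ENSMUSG00000069805 (*Fbp1*), ENSMUSG00000078650 (*G6pc*), ENSMUSG00000032114 (*Slc37a4*), ENSMUSG00000027690 (*Slc2a2*), ENSMUSG00000001670 (*Tat*), ENSMUSG00000029597 (*Sds*), ENSMUSG00000044167 (*Foxo1*) and ENSMUSG00000029167 (*Ppargc1a*). Hepatocytes came from livers of male mice 28 days old. The genotype label of a library is wild-type (strain C57BL/6NCrl, WT below) or DRE-null (strain Pkm-delta-DRE, PkmΔDRE below). The second line was made by deleting a dioxin response element (DRE) from an intron of *Pkm* by genome editing, in all cells of the animal, and comes from 1 mutant line. Cells attached on collagen in Williams E medium with serum, and then received serum-free medium holding ITS Premix (a supplement that contains insulin), ascorbic acid and dexamethasone, with either TCDD (10 nM, a chlorinated dioxin) or its vehicle, dimethyl sulfoxide. Insulin and dexamethasone were thus shared by all groups. Cells were harvested at 2, 4, 8 and 12 h on the first day and then at 24, 48, 72, 96 and 120 h, with 4 libraries for each of the 36 combinations of label, treatment and hour. The labels do not say whether these 4 came from separate animals or cultures, so p-values measure only the spread between libraries, which may be technical.

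Liver makes new glucose from lactate, glycerol and amino acids between meals. Glucagon, through cAMP and the factor CREB, and glucocorticoids raise the genes of the pathway, whereas insulin lowers them by keeping the factor FOXO1 out of the nucleus. TCDD is a ligand of the aryl hydrocarbon receptor (AHR), which binds DREs, and lowered *Pck1* expression and glucose output are well known in the liver of rodents given TCDD.

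The promoters of *Pck1*, *G6pc* and *Fbp1* are printed, for 2 genes that fell early in culture and 1 that fell more slowly. In WT vehicle at 8 h their means were 8.21%, 7.09% and 52.2% of those at 2 h, in that order. Each is the run of 250 bases before the transcription start in RefSeq's annotation of GRCm38.p6, 5′ to 3′ on the gene's own strand: chr2:173152823-173153072 (plus strand) for *Pck1*, chr11:101367466-101367715 (plus strand) for *G6pc* and chr13:62888283-62888532 (minus strand) for *Fbp1*. Capitals mark matches, on either strand, to GCGTG (the core of a DRE), TGTTTAC (the forkhead core), TGTTTTG (the core of an insulin response sequence), ACGTCA (the core of a cyclic AMP response element) and TATAAA (the letters of the TATA box).
Pck1: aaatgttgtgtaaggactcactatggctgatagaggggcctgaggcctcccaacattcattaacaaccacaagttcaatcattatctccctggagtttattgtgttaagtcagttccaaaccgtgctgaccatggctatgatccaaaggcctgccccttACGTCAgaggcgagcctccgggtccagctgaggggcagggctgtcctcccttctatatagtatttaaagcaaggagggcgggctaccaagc
G6pc: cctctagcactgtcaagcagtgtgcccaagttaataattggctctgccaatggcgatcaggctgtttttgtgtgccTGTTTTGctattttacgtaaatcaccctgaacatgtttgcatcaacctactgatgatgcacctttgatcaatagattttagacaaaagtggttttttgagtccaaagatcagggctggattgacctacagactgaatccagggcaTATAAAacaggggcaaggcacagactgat
Fbp1: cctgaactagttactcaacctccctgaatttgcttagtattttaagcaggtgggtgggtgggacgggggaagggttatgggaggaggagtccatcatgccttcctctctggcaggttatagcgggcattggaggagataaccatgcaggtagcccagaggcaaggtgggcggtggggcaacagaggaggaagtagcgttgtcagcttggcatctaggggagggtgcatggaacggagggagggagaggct
The *Pck1* window held ACGTCA, starting 91 bases before the start, and the *G6pc* window held TGTTTTG at 174 and TATAAA at 29 bases. None of these motifs was in the *Fbp1* window, which says only that these letters are not there. Of the 27025 promoter windows of that length in the table, 28.2% held the DRE core, 3.09% the forkhead core, 5.55% the insulin response core, 6.56% the cyclic AMP response core and 13% the TATA box. The other 9 windows belonged to 6 more of the genes, with ACGTCA in *Ppargc1a* at 50 bases, its reverse complement in 2 overlapping windows of *Slc37a4* (61 and 214 bases), TATAAA in the remaining *Slc37a4* window (32 bases), a reversed DRE core in *Foxo1* (247 bases), and no match in *Pcx*, *Slc2a2* or *Tat*. *Sds* had no entry.

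Levels are given in CPM, the millionths of a library's total count that fell on a gene, with totals scaled across all libraries. Between 13588848 and 30719161 read pairs per library were counted on genes, so that 1 count was worth 0.0326 to 0.0736 CPM. A gene was called changed where it moved by 1.5-fold or more at an adjusted p from edgeR below 0.05. Some libraries went against their labels. Total *Pkm* counts, which do not separate the isoforms of the gene, were higher under TCDD in the libraries labelled PkmΔDRE at 8 h (mean of 54.9 CPM with vehicle and 129.7 with TCDD) and not in those labelled WT (62.4 and 45.6). At 24 h the means were 161 and 429 CPM in PkmΔDRE, with overlap, and 87.6 and 83 CPM in WT. The DRE that was removed lies in *Pkm*, and other measurements of its isoforms were not analysed here, so each genotype below is the label of its libraries. *Cyp1a1*, the classic AHR target, was at 3285 and 1717 CPM in replicate 1 at 48 h and replicate 3 at 96 h of WT vehicle, and at 1.15 and 29.2 CPM in replicate 4 at 2 h and at 72 h of WT TCDD. Replicate 4 of PkmΔDRE vehicle at 4 h and replicate 4 of PkmΔDRE vehicle at 96 h, the discordant libraries below, stood apart from their hour. Over 12243 genes their correlations with the median of their labelled hour were 0.772 and 0.766, and with that of the nearest hour 0.976 (96 h) and 0.981 (4 h), whereas the lowest own-hour correlation among all other libraries was 0.911. All libraries stayed in the groups of their labels, and results that turn on the discordant libraries are given with and without them.

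In vehicle-treated cells, expression of the enzymes and transporters fell within the first day of culture. Between 2 and 24 h, 9 of the 10 genes were called lower in WT and none higher, where 20% of the 15862 genes tested were called lower, and 8 were called lower in PkmΔDRE, where 15.2% of 15968 were. In WT, 8 of the 10 did not overlap between these hours, as 42.8% of all genes did not. The median log2 fold change of the 10 genes was -3.32 in WT and -3.42 in PkmΔDRE, against 0.18 and 0.23 over all genes tested. *Ppargc1a* was not called in either label (0.54, SE 0.59, adjusted p = 0.468 in WT), and *Foxo1* was called lower in WT (-0.65, SE 0.23, adjusted p = 0.0185), where leaving out replicate 3 at 2 h or replicate 1 or 2 at 24 h ended the call (adjusted p from 0.0541 to 0.0597). In PkmΔDRE, the *Slc37a4* call ended without replicate 1 or 3 at 2 h or replicate 2 or 3 at 24 h (adjusted p from 0.0528 to 0.0871) when the discordant libraries were in the fit. Without the discordant libraries, 8 of the 10 were again called lower in PkmΔDRE both at 24 h and at 120 h against 2 h, with *Pck1* at -8.58 and *Slc37a4* at -2.02 (adjusted p = 0.000147) at 24 h. The shares of all genes given for PkmΔDRE vehicle, here and at 120 h, are from the fit with all its libraries.

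*Pck1* encodes cytosolic phosphoenolpyruvate carboxykinase, which makes phosphoenolpyruvate from oxaloacetate. Its levels in the 4 WT vehicle libraries were 837, 1048, 871 and 497 CPM at 2 h, 67.7, 74.7, 58.1 and 66.6 CPM at 8 h and 6.97, 4.08, 2.94 and 4.27 CPM at 24 h. Every library of a later hour was below every library of an earlier one. The difference between 24 and 2 h was -7.60 on the log2 scale (SE 0.69, adjusted p = 1.09e-10), and the mean at 24 h was 0.562% of that at 2 h. In PkmΔDRE vehicle the levels were 1357, 539, 1360.4 and 1704 CPM at 2 h and 4.57, 3.88, 3.91 and 2.6 CPM at 24 h (-8.52, SE 1.39, adjusted p = 3.74e-05). After 24 h, *Pck1* ranged from 0.22 to 1.69 CPM at 48 h to 0.629 to 6.19 CPM at 120 h in WT, and 120 h against 24 h was not called in either label.

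*G6pc* encodes the catalytic subunit of glucose-6-phosphatase, which releases free glucose in the last step of the pathway. In WT vehicle its levels were 101.5, 90.5, 202 and 185 CPM at 2 h, 8.51, 11.2, 11.9 and 9.5 CPM at 8 h and 1.02, 0.384, 1.32 and 1.08 CPM at 24 h (-7.33, SE 0.52, adjusted p = 4.16e-13 for 24 against 2 h). The lowest mean was at 72 h, where 2 of the 4 libraries had no count and the others had 0.0433 and 0.403 CPM. A count of 0 allows up to 3 counts, or 0.0977 to 0.221 CPM over the libraries, for counting error only. At 120 h the levels were 2.31, 2.51, 1.85 and 4.39 CPM, all above those at 24 h. This late rise was called in WT (1.47, SE 0.45, adjusted p = 0.00886 for 120 against 24 h), where 17% of all genes were called higher and 18.6% lower, and was lost without replicate 4 at 120 h (log2 difference of 1.15, adjusted p = 0.0565). In PkmΔDRE the levels at 120 h were 4.12, 2.22, 3.77 and 2.7 CPM against 0.544, 3.54, 0.391 and 1.41 at 24 h, which overlapped and was not called (1.01, SE 0.92, adjusted p = 0.461).

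*Fbp1* encodes the liver form of fructose bisphosphatase and fell both before and after 24 h. In WT vehicle it was at 1545, 1829, 1740.5 and 1748 CPM at 2 h, 164, 163, 111.4 and 174 CPM at 24 h and 4.17, 36, 9.44 and 6.15 CPM at 120 h. The 3 hours did not overlap, and the differences were -3.61 (SE 0.40, adjusted p = 6.48e-09) from 2 to 24 h and -3.51 (SE 0.40, adjusted p = 4.03e-08) from 24 to 120 h on the log2 scale. In PkmΔDRE vehicle it was the only one of the 10 genes called between 24 and 120 h (-4.28, SE 1.13, adjusted p = 0.00658), where 23.4% of all genes were called. Without the discordant libraries, which belong to the same fit, *Pcx* (-1.72, adjusted p = 0.00336), *Slc37a4* (-1.42, adjusted p = 0.00606) and *Slc2a2* (1.12, adjusted p = 0.0402) were called there too. The share of 23.4% is from the fit with those libraries. *Pcx* encodes pyruvate carboxylase, the first step of the pathway from pyruvate. Its WT vehicle levels went from 1341, 1726, 1306 and 1473 CPM at 2 h to 206, 203, 165 and 206 CPM at 24 h (-3.04, SE 0.38, adjusted p = 5.41e-08), and were 78.5, 146, 75.5 and 68.8 CPM at 120 h. The 3 hours did not overlap in these libraries, although 1 library at 72 h was at 732 CPM while the other three were at 156, 185 and 186 CPM.

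The mean levels of the transporters at 24 h were 21.2% (*Slc37a4*) and 23% (*Slc2a2*) of those at 2 h in WT vehicle. *Slc37a4*, which carries glucose-6-phosphate into the endoplasmic reticulum where G6PC acts, was at 297, 463, 351 and 343 CPM at 2 h and 442, 413, 284 and 286 CPM at 8 h in WT vehicle, and these hours overlapped. By 24 h it was at 84.8, 70.1, 66.7 and 86.5 CPM (-2.37, SE 0.29, adjusted p = 3.37e-08). *Slc2a2*, which encodes the glucose transporter GLUT2 of the hepatocyte surface, went from 179.7, 147, 473 and 281 CPM at 2 h to 58.7, 41.5, 106.4 and 42.1 CPM at 24 h (-2.22, SE 0.42, adjusted p = 5.92e-05). Its lowest WT mean was 13.1 CPM at 72 h, and the levels at 120 h were 58.6, 61, 32.4 and 84.8 CPM, which overlapped those at 24 h.

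Of the amino acid enzymes, *Tat* encodes tyrosine aminotransferase and is a classic glucocorticoid target. Its WT vehicle levels were 2114, 3579, 943 and 1529 CPM at 2 h and 109.5, 104.5, 70.2 and 104.3 CPM at 24 h (-4.54, SE 0.69, adjusted p = 1.71e-06), with no overlap. They were 2.06 to 29.7 CPM at 72 h and 89.7, 66.6, 170.4 and 207 CPM at 96 h, so every library at 96 h was above every library at 72 h. *Sds* encodes serine dehydratase, and fell from 122.3, 248, 92.4 and 121.9 CPM at 2 h to 2.17, 1.97, 1.32 and 1.48 CPM at 24 h (-6.54, SE 0.63, adjusted p = 4.10e-10), after which it stayed between 0.345 and 2.85 CPM.

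The mean levels of the regulators at 24 h were 68.9% (*Foxo1*) and 156% (*Ppargc1a*) of those at 2 h in WT vehicle. *Foxo1* in WT vehicle was at 73.7, 49.5, 87 and 71.4 CPM at 2 h, 23.7, 20.7, 23.4 and 26.4 CPM at 8 h and 63.9, 38.6, 41.9 and 68 CPM at 120 h, where 120 h overlapped 2 h. *Ppargc1a* was low throughout, at 1.11, 0, 2.22 and 1.59 CPM at 2 h and 5.93, 2.64, 5.74 and 7.08 CPM at 120 h in WT vehicle. It was the only one of the 10 called higher between 2 and 120 h (1.96, SE 0.60, adjusted p = 0.00512), beside 8 called lower, where 57.9% of all genes were called and 24.5% lower. Its difference between 24 and 120 h was also called (1.43, SE 0.57, adjusted p = 0.0444), but the call ended when any of 6 of the 8 libraries (all but replicate 2 at either hour) was left out (adjusted p from 0.0738 to 0.1395). In PkmΔDRE vehicle, 8 of the 10 were called lower between 2 and 120 h (22.7% of all genes) and *Ppargc1a* was not called (1.73, SE 0.78, adjusted p = 0.0658, and 1.70, adjusted p = 0.0605, without the discordant libraries).

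**Figure D1:**
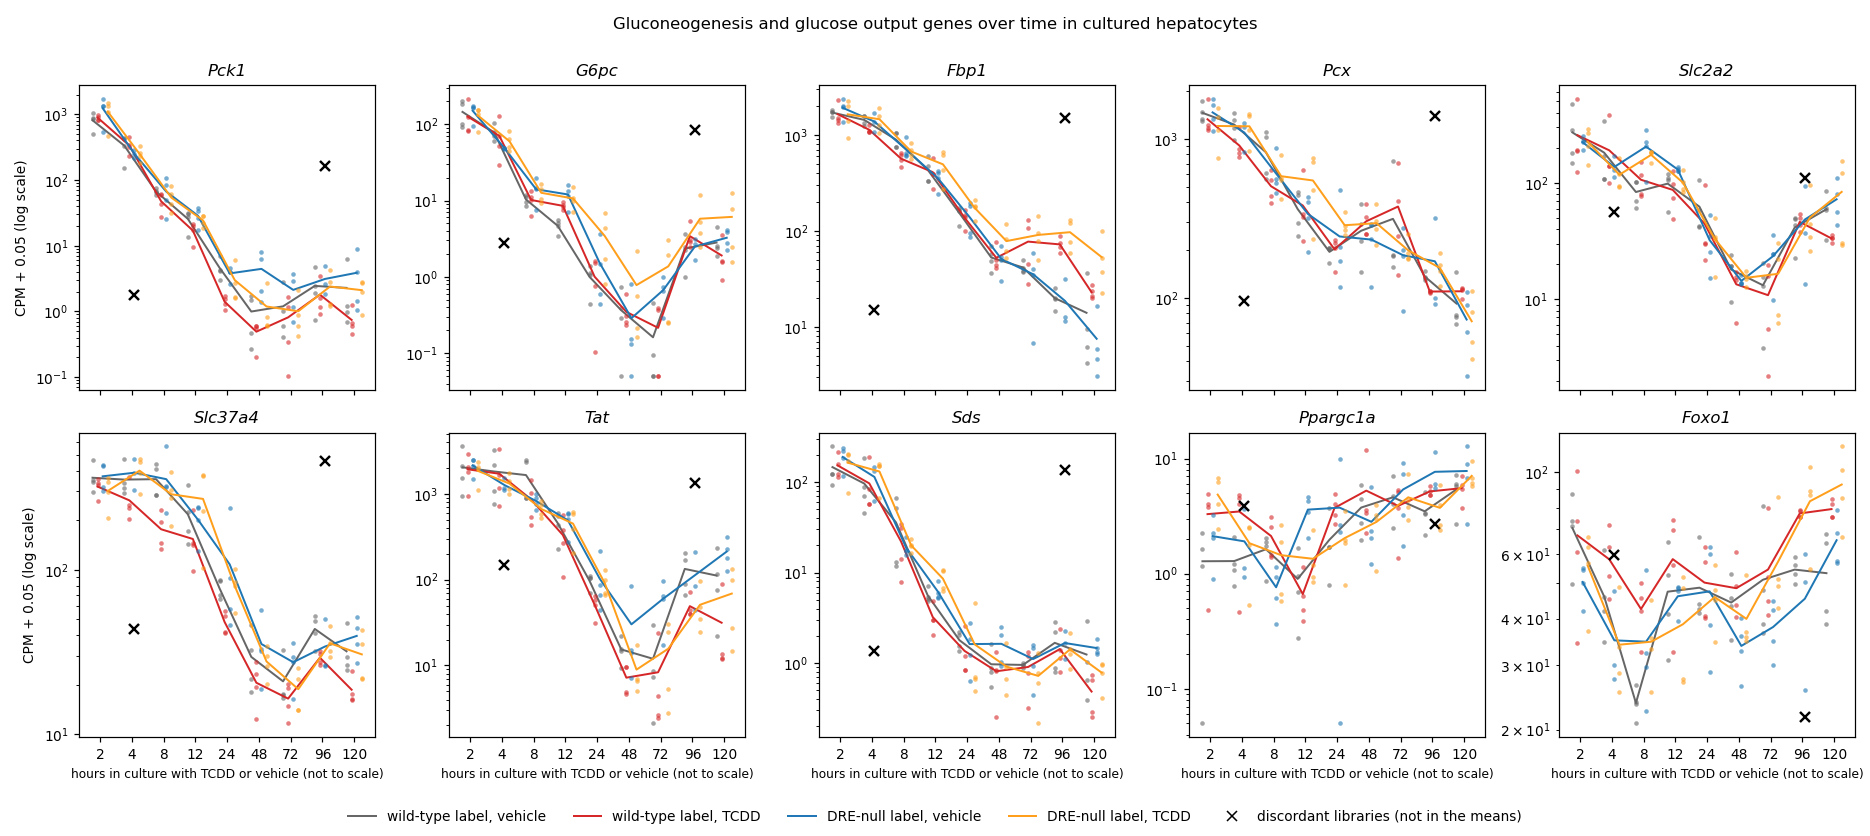
Level of each gene in CPM (plus 0.05, log scale) against hours in culture (evenly spaced, not to scale), in 1 panel per gene. Points are libraries, lines join the means of the 4 combinations of label and treatment, and crosses are the discordant libraries, which are not in the means. In all panels but those of *Ppargc1a* and *Foxo1* the lines fall steeply up to 24 or 48 h, and, except for *Slc2a2*, the crosses lie far from the points of their hour.

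The order of the genes by level changed with it. Per kilobase of exon, WT vehicle cells at 2 h held 1008 ± 70.9 CPM of *Fbp1*, 849 ± 470.3 of *Tat*, 308 ± 40.1 of *Pcx*, 237 ± 67 of *Pck1* and 127.2 ± 24.7 of *Slc37a4* (mean ± SD, n = 4). Below these came *Sds* (86.2), *G6pc* (60), *Slc2a2* (46.9), *Foxo1* (8.13) and *Ppargc1a* (0.187 CPM per kilobase). Neighbours in this order overlapped in range down to *Slc2a2*, except *Tat* and *Pcx*, whereas *Foxo1* and *Ppargc1a* each lay wholly below the gene before. At 120 h, *Tat* (46.4 ± 37.2 CPM per kilobase) and *Pcx* (19.4 ± 7.59) headed the order, *Fbp1* was the fifth (8.19 ± 8.73) and *Pck1* was last (0.651 ± 0.772), at a level whose range overlapped those of *Sds*, *Ppargc1a* and *G6pc*.

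**Figure D2:**
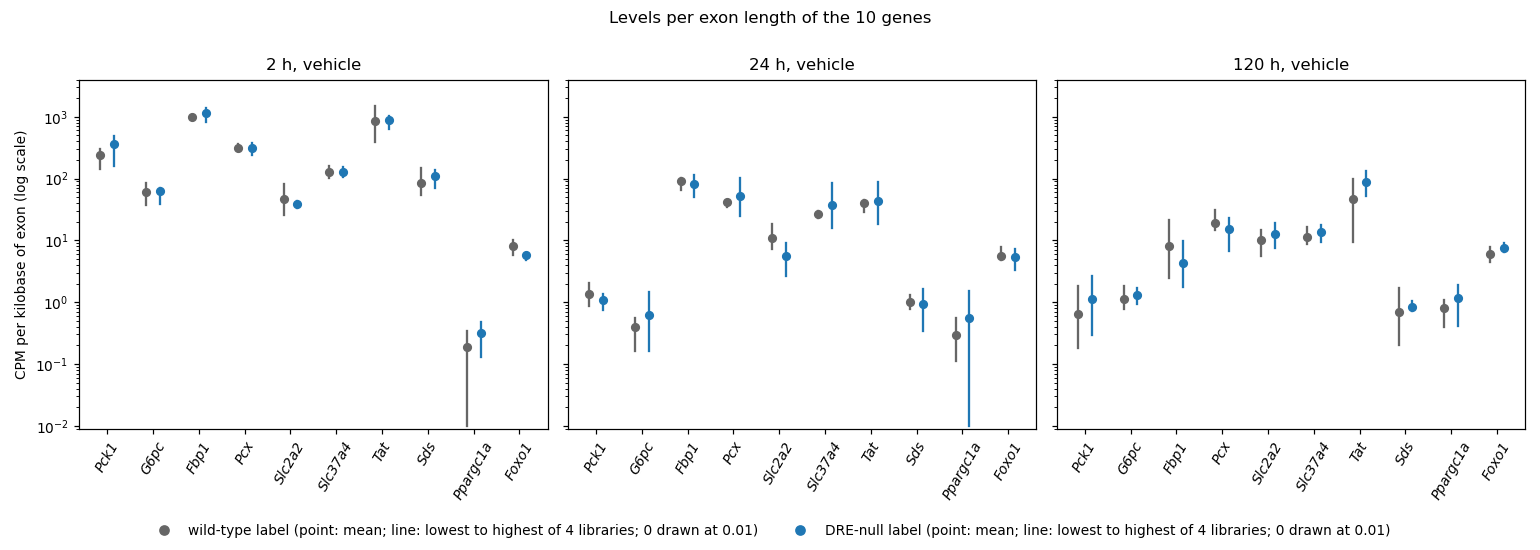
CPM per kilobase of exon (log scale) of the 10 genes in vehicle-treated cells at 2, 24 and 120 h, for WT (grey) and PkmΔDRE (blue). Points are means and lines run from the lowest to the highest of 4 libraries, with 0 drawn at 0.01. *Pck1* moves from 237 CPM per kilobase at 2 h to 0.651 at 120 h in WT, where its range overlaps that of *Ppargc1a*.

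Markers of cell types moved over the same hours. The summed level of 8 hepatocyte markers, among them albumin, was 157020 to 196990 CPM in WT vehicle libraries at 2 h, 49048 to 52245 CPM at 24 h and 9493 to 34195 CPM at 120 h. That of 5 cholangiocyte markers was 55.7 to 140.8 CPM at 2 h, 74.9 to 156 CPM at 24 h and 581 to 1069 CPM at 120 h, whereas 6 macrophage markers went from 134.2 to 205 CPM at 2 h to 13.5 to 53.3 CPM at 120 h, and 5 endothelial markers from 145 to 281 CPM to 22.8 to 44.2 CPM. The 6 stellate cell and fibroblast markers summed to 17.3 to 25.8 CPM at 2 h and 14.5 to 93.3 CPM at 120 h, and every marker was detected at each of these hours. Markers of 1 list did not all move together between 2 and 120 h under TCDD in WT (28.1% of all genes called higher, 25.2% lower). Among cholangiocyte markers, *Krt7* (6.32), *Krt19* (4.42) and *Spp1* (4.16) were called higher, *Epcam* (-1.29) lower and *Sox9* not. Among macrophage markers, *Clec4f* (-8.34), *Csf1r* (-1.83) and *Cd68* (-1.57) were called lower, and *Adgre1*, *Vsig4* and *Ptprc* not. In bulk libraries, fewer cells of a type and less RNA per cell cannot be told apart, and the part of these shifts in the fall of the glucose genes was not tested.

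Other genes of the pathway were called in both directions between 2 and 24 h in WT vehicle, where 25.8% of all genes were called higher and 20% lower. Of 15 other enzymes that share steps or substrates with gluconeogenesis and glycogen breakdown, 3 were called higher and 8 lower, with a median log2 difference of -1.07 (all genes, 0.18). *Pygl* (liver glycogen phosphorylase, -2.40) and *Mdh1* (cytosolic malate dehydrogenase, -2.30) were among those that fell, and *Fbp2* (the muscle bisphosphatase, 3.84) and *G6pc3* (the ubiquitous phosphatase, 1.46) among those that rose. Of 16 regulators, 5 fell, led by *Cebpa* (-3.22), the glucagon receptor gene *Gcgr* (-2.36) and *Irs2* (-1.66), and *Creb1* (1.95) and *Insr* (0.81), the insulin receptor gene, rose. Of 8 targets of glucocorticoids or FOXO factors, 5 fell and none rose, led by *Igfbp1* (-4.47), *Trib1* (-3.03) and *Pdk4* (-2.41). Of 10 genes of glycolysis and glucose uptake, 6 also fell and none rose, led by *Slc2a1* (-3.42), *Hk1* (-2.71) and *Gckr* (-2.09).

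Few differences between TCDD and the time-matched vehicle were called among the 10 genes. Over the 18 comparisons of label and hour, 177 tests were possible and 6 were called, 4 at 8 h and 2 at 96 h in WT (37.4% and 15.1% of all genes), while 40 had an unadjusted p under 0.05. Of all genes tested in WT, 0% were called at 2, 4 and 72 h, and 0.0321%, 0.373%, 0.00763% and 1.46% at 12, 24, 48 and 120 h. In PkmΔDRE the share was 0% at 2 and 4 h, 0.106%, 0.024% and 0.016% at 8, 12 and 24 h, and 0.404%, 1.13%, 0.0793% and 0.633% at 48 to 120 h in order. *G6pc* was too low to test at 48 h in both labels and at 72 h in WT. Under DESeq2, 14 were called, including those 6. The shares of all genes above are from edgeR. Those of DESeq2 are not given, so its calls, here and below, are not set against all genes.

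At 8 h in WT, *Fbp1*, *Pcx* and *Slc37a4* were called lower and *Foxo1* higher with TCDD. These 4 of 10 stand against 37.4% of all 12392 genes tested that were called at this hour (23.8% higher and 13.6% lower), and the median of the 10 genes was -0.61 against 0.004 over all genes. *Slc37a4* was at 442, 413, 284 and 286 CPM with vehicle and 195, 230.2, 134.2 and 146 CPM with TCDD. Every TCDD library was below every vehicle library (41.3% of genes did not overlap at this hour), with a log2 fold change of -1.05 (SE 0.21, adjusted p = 0.00243). *Fbp1* was at 1046, 1039, 754 and 747 CPM with vehicle and 643, 619, 461 and 546 CPM with TCDD. These groups did not overlap either (-0.69, SE 0.17, adjusted p = 0.00615). *Pcx* was at 1101, 1027, 609 and 563 CPM and 553, 636, 394 and 437 CPM, which overlapped, since vehicle replicates 3 and 4 lay below TCDD replicate 2 (-0.74, SE 0.24, adjusted p = 0.0226). The *Pcx* call ended without vehicle replicate 1 or 2 or TCDD replicate 3 or 4 (adjusted p from 0.0595 to 0.0759), and those of the other 3 genes held without any 1 library.

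*Foxo1* was the 1 gene of the 10 called higher at 8 h, at 23.7, 20.7, 23.4 and 26.4 CPM with vehicle and 41.8, 32.4, 45.5 and 50 CPM with TCDD. All TCDD libraries were above all vehicle libraries (0.82, SE 0.17, adjusted p = 0.00294), and the vehicle level at 8 h was the lowest mean of its time course. *Tat* was at 2367, 2455, 903 and 905 CPM and 1439.9, 1036, 432 and 544 CPM (-0.98, SE 0.45, adjusted p = 0.0936), and *Pck1* at 67.7, 74.7, 58.1 and 66.6 and 60.7, 59.1, 27.4 and 42.7 CPM (-0.53, SE 0.23, adjusted p = 0.0731). The groups overlapped for both genes, and neither was called with all libraries. Without TCDD replicate 1, *Tat* (-1.34, adjusted p = 0.0361) and *Pck1* (-0.67, adjusted p = 0.0314) were called, and *Slc37a4* (-1.10), *Fbp1* (-0.76), *Pcx* (-0.79) and *Foxo1* (0.82) remained called. *Tat* was also called without vehicle replicate 3 (-1.19, adjusted p = 0.0473).

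TCDD replicate 1 of WT at 8 h held the largest share of pairs outside genes of the series (48.0% of pairs on no gene line). Among uniquely mapped pairs, 8.36% to 21.9% fell outside annotated genes in the TCDD libraries of WT at 8 h and 4.89% to 5.99% in the vehicle libraries, which did not overlap, and the number of genes detected was 18337 to 20626 against 15401 to 17203. The hepatocyte markers summed to 81122 to 90920 CPM with TCDD and 98475 to 115860 CPM with vehicle, while 2 of the 8 (*Apob* and *Cps1*) were called higher and 4 lower (*Apoa1*, *Serpina1a*, *Tf* and *Ttr*). The 6 stellate cell and fibroblast markers summed to 45.7 to 93.8 CPM with TCDD and 13.9 to 17.1 CPM with vehicle, with *Reln* the 1 called of the 2 that could be tested. The part of these shifts in the 8 h result was not tested.

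Other genes of the pathway were also called at 8 h in WT, beside the 23.8% of all genes called higher and 13.6% called lower. Of 14 other enzymes tested, 3 fell (the aminotransferase gene *Gpt*, -0.96, *Sdsl*, -0.96, and the mitochondrial malate dehydrogenase gene *Mdh2*, -0.70) and 1 rose. Of the 16 regulators, 4 fell, led by *Cebpb* (-1.01), *Klf15* (-0.88) and *Sik1* (-0.69), and 4 rose, led by *Sirt1* (1.54), the glucocorticoid receptor gene *Nr3c1* (1.24) and *Creb1* (0.76). Of the glucocorticoid and FOXO targets, *Tsc22d3* (-0.78) and *Dusp1* (-0.59) fell and *Pdk4* (0.91) rose, and of the 10 genes of glucose use 1 fell. The medians of these lists were -0.45, 0.01, -0.27 and -0.41, in the order given.

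At 96 h in WT, *Fbp1* was higher with TCDD and *Tat* lower, where 15.1% of all 13793 genes tested were called (10.1% higher and 5% lower) and 33.8% did not overlap. *Fbp1* was at 19.9, 14.6, 25.3 and 19.6 CPM with vehicle and 74.9, 58.8, 67.3 and 88.3 CPM with TCDD. Every TCDD library was far above every vehicle library, and the log2 fold change was 1.93 (SE 0.17, adjusted p = 8.81e-05). The call held without any 1 library and under every alternative setting run for this comparison. Its direction was the opposite of that at 8 h. *Tat* was at 89.7, 66.6, 170.4 and 207 CPM with vehicle and 43.8, 40.3, 39.5 and 72.7 CPM with TCDD. The highest TCDD library lay above the lowest vehicle library, and the call (-1.37, SE 0.37, adjusted p = 0.0225) ended without vehicle replicate 4 or TCDD replicate 1, 2 or 3 (adjusted p from 0.0557 to 0.0808).

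A further 3 genes passed the adjusted p at 96 h with changes under 1.5-fold. *Foxo1* was at 52.9, 49.6, 58.9 and 55.9 CPM and 78.5, 78.9, 75.6 and 75.6 CPM (0.57, SE 0.08, adjusted p = 0.000589), *Slc37a4* at 41.4, 32.1, 48.4 and 52.4 and 27.6, 26.4, 31.8 and 30.6 CPM (-0.52, SE 0.13, adjusted p = 0.0123), and *Pcx* at 148, 132.6, 135.3 and 130.5 and 109.1, 107.6, 110.7 and 111.3 CPM (-0.26, SE 0.07, adjusted p = 0.0219). None of the 3 overlapped between treatments, and the spread between libraries was small at this hour, with an SD of 1.66 CPM for *Pcx* under TCDD. Without vehicle replicate 3, whose *Cyp1a1* went against its label, *Fbp1* (2.06, adjusted p = 3.4e-05) and *Tat* (-1.23, adjusted p = 0.0404) were still called, and *Foxo1* (0.60, adjusted p = 0.00088) and *Ppargc1a* (0.88, adjusted p = 0.0173) passed both thresholds as well. TCDD replicate 1 at 96 h had 63.3% of the pairs counted by strand on 1 strand (50.4% to 51.5% in the other 7 libraries), and *Fbp1* without it was at 1.89 (adjusted p = 0.000303).

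Cell type markers differed at 96 h in WT too. The hepatocyte sum was 29701 to 32014 CPM with TCDD and 19521 to 26989 CPM with vehicle, with *Alb* and *Apob* called higher and none lower. The cholangiocyte sum was 372 to 781 CPM with TCDD and 609 to 1331 CPM with vehicle, with *Krt19* and *Krt7* called lower. Stellate cell and fibroblast markers summed to 65 to 189 CPM and 33.3 to 84.8 CPM, with *Reln* called higher, and endothelial markers to 26.5 to 38.7 CPM and 37.1 to 51.3 CPM, with *Lyve1* and *Pecam1* called lower. Their part in the changes of *Fbp1* and *Tat* was not tested. Among the other pathway genes, beside 10.1% of all genes called higher and 5% called lower, *Pck2* (mitochondrial phosphoenolpyruvate carboxykinase, -0.97) and *G6pc3* (-0.73) fell, *Sirt1* (0.83), *Nr3c1* (0.77) and *Gcgr* (0.68) rose, *Pdk4* rose (0.93), and among the genes of glucose use *Gckr* rose (1.71) and *Hk1* (-0.81), *Slc2a1* (-0.79) and *Pkm* (-0.73) fell.

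**Figure D3:**
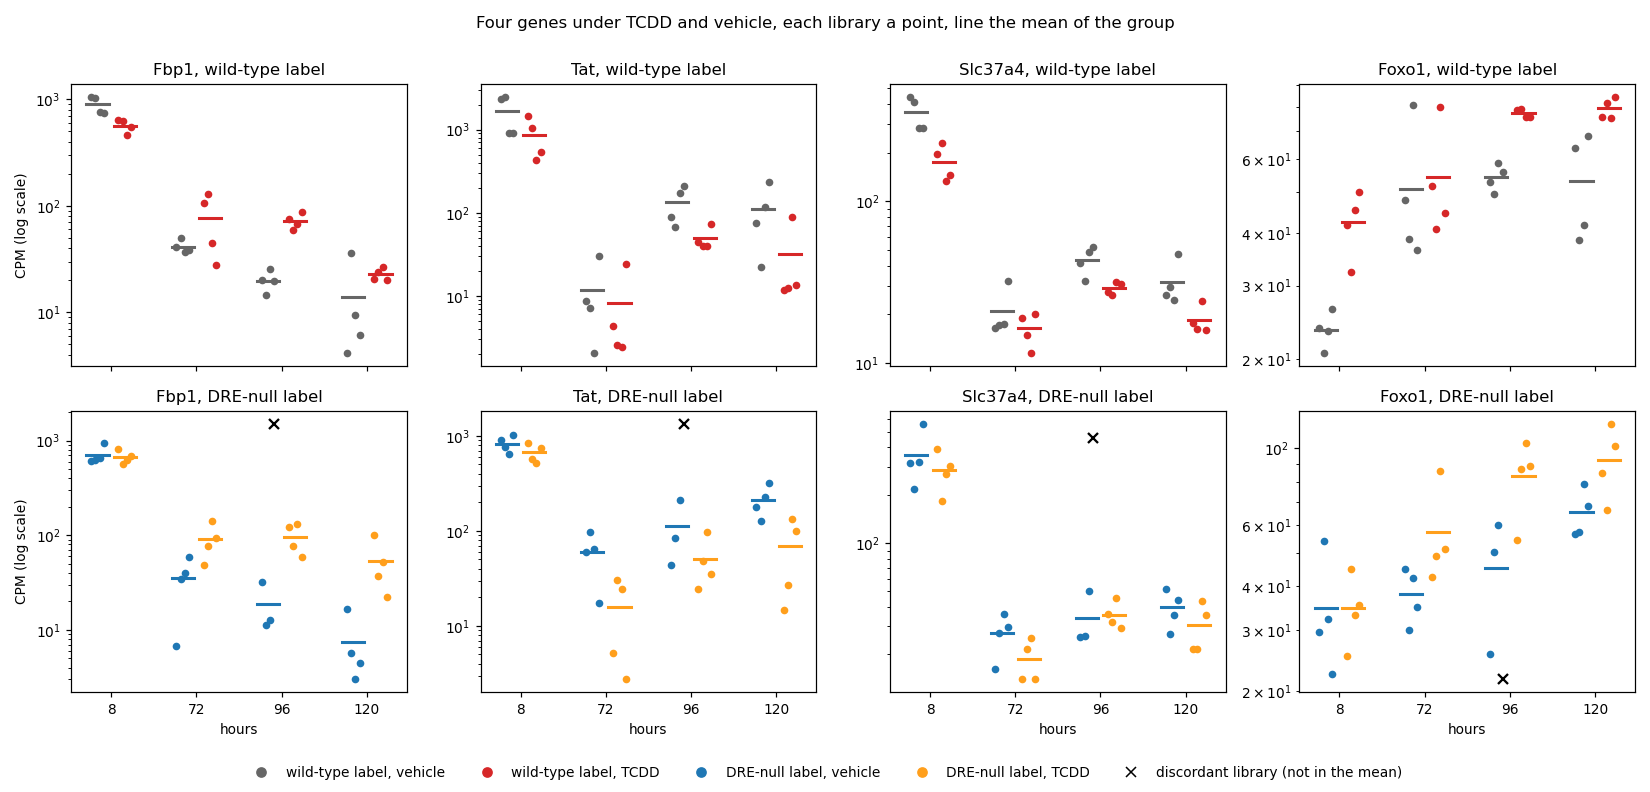
CPM (log scale) of *Fbp1*, *Tat*, *Slc37a4* and *Foxo1* in each library at 8, 72, 96 and 120 h under vehicle and TCDD, with WT in the upper and PkmΔDRE in the lower panels. Bars are group means and the cross is the discordant library, which is not in its mean. At 96 h in WT, *Fbp1* lies between 58.8 and 88.3 CPM under TCDD and between 14.6 and 25.3 CPM under vehicle.

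In PkmΔDRE the *Fbp1* result at 96 h turned on 1 library. The levels were 31.8, 11.4, 12.7 and 1508 CPM with vehicle and 120.9, 77, 131.1 and 58.9 CPM with TCDD. The 3 lower vehicle libraries lay below all TCDD libraries, and the other, the discordant library, lay far above them. With all 8 libraries the log2 fold change was -2.19 (SE 1.5, adjusted p = 0.735), and 0.0793% of all genes were called. Without the discordant library it was 2.34 (SE 0.38, adjusted p = 0.0109) and was called, as were 2.25% of all genes. At 120 h in PkmΔDRE, *Fbp1* was at 16.5, 5.77, 3.01 and 4.51 CPM with vehicle and 100.5, 37.1, 52.6 and 22.5 CPM with TCDD. The groups did not overlap (5.2% of genes), but the difference was not called (2.82, SE 0.59, adjusted p = 0.0789), and it was called without vehicle replicate 1 (3.55, adjusted p = 0.0373) and by DESeq2 (2.79, adjusted p = 3.08e-05). The libraries of these 2 treatments also differed in their share of unmapped pairs. At 96 h it was 1.96% to 2.90% with TCDD and 4.30% to 11.1% with vehicle. At 120 h it was 2.20% to 2.48% with TCDD and 4.06% to 6.68% with vehicle. It was 2.88% to 3.74% and 4.57% to 6.87% at 48 h, with TCDD first. At 72 h it was 2.43% to 3.16% and 3.07% to 7.74%, which overlapped. The part of this shift in the differences of PkmΔDRE at these hours was not tested.

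In WT at 120 h, *Fbp1* was at 4.17, 36, 9.44 and 6.15 CPM with vehicle and 20.7, 23.8, 26.9 and 20.1 CPM with TCDD. Vehicle replicate 2 was above all TCDD libraries and the other 3 below them. The difference was not called (0.71, SE 0.63, adjusted p = 0.626), and was called without that replicate (1.81, adjusted p = 0.013). At 72 h the values of *Fbp1* were 40.8, 49.7, 37 and 38.5 and 106.7, 129.9, 44.7 and 27.9 CPM in WT and 6.76, 34.6, 40.4 and 59.2 and 49.1, 77.7, 142.4 and 94.1 CPM in PkmΔDRE, with vehicle first. Both pairs of groups overlapped and neither was called (log2 fold changes of 0.90 and 1.34). The 6.76 CPM came from replicate 1, which was nearer to the median of 120 h (r = 0.9815) than to that of 72 h (r = 0.9582). The lowest TCDD value in WT at 72 h, 27.9 CPM, was that of the library whose *Cyp1a1* was low, and without it the log2 fold change was 1.17 (adjusted p = 0.421).

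At 24 h in WT, *Pck1*, *Slc37a4* and *Tat* did not overlap between treatments, as 9.73% of all genes did not, and none was called by edgeR. *Pck1* was at 6.97, 4.08, 2.94 and 4.27 CPM with vehicle and 1.67, 1.26, 1.48 and 1.01 CPM with TCDD (-1.67, SE 0.33, adjusted p = 0.0763). These values stand on few counts, and DESeq2 called the difference (-1.70, adjusted p = 0.000455). *Slc37a4* was at 84.8, 70.1, 66.7 and 86.5 and 52.3, 41.3, 42 and 56.3 CPM (-0.60, SE 0.15, adjusted p = 0.164), and *Tat* at 109.5, 104.5, 70.2 and 104.3 and 50.5, 57.5, 31.1 and 65.2 CPM (-0.84, SE 0.23, adjusted p = 0.214). All 3 had lower values with TCDD, and DESeq2 also called *Slc37a4* (adjusted p = 0.0169) and *Tat* (adjusted p = 0.0318). In PkmΔDRE at the same hour, *Pck1* was at 4.57, 3.88, 3.91 and 2.6 and 1.54, 2.63, 1.64 and 5.96 CPM, which overlapped (-0.42, SE 0.54, adjusted p = 1).

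*Tat*, *Pck1* and *Slc37a4* had fitted log2 fold changes below 0 in most comparisons, 17, 16 and 16 of 18, with medians of -0.67, -0.54 and -0.48, and in 17, 17 and 15 of 18 without the discordant libraries. Among these, the *Slc37a4* difference at 8 h and the *Tat* difference at 96 h in WT were called. For *Sds* the value was below 0 in 14 of 18 and *Slc2a2* in 11 of 18. *Foxo1* was above 0 in 14 of 18 (median of 0.19). *G6pc* was below 0 in 8 of 15 (7 without those libraries) and had 1 comparison without overlap, WT at 12 h, at 3.38, 4.96, 4.6 and 5.5 CPM with vehicle and 9.53, 7.48, 8.1 and 8.78 CPM with TCDD, where 2.16% of genes did not overlap. Its values there were higher with TCDD without being called (0.88, SE 0.26, adjusted p = 0.998). *Ppargc1a* at 2 h was at 1.11, 0, 2.22 and 1.59 and 4.84, 3.74, 3.95 and 0.433 CPM in WT and 0.856, 3.18, 2.23 and 2.01 and 3.98, 6.69, 2.41 and 6.17 CPM in PkmΔDRE, with vehicle first. Both pairs overlapped, and the lowest TCDD value in WT, 0.433 CPM, was again in the library with low *Cyp1a1*.

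At 120 h, 2 more genes did not overlap between treatments in WT, where 10.8% of all genes did not. *Slc37a4* was at 26.3, 29.4, 24.6 and 47.1 CPM with vehicle and 17.6, 16.2, 24.3 and 16.1 CPM with TCDD (-0.78, SE 0.22, adjusted p = 0.115). *Foxo1* was at 63.9, 38.6, 41.9 and 68 and 75.6, 81.9, 75.3 and 84.3 CPM (0.58, SE 0.18, adjusted p = 0.144). The direction of each was that of its change at 8 h. *Slc2a2*, at 58.6, 61, 32.4 and 84.8 and 35.2, 30.6, 33.6 and 33.4 CPM, overlapped by 1 library and was called without vehicle replicate 3 (-1.04, adjusted p = 0.00881), as was *Slc37a4* without TCDD replicate 3 (-0.93, adjusted p = 0.0402). In PkmΔDRE, *Sds* did not overlap at 120 h, at 1.79, 1.2, 1.4 and 1.26 and 0.929, 0.359, 0.91 and 0.729 CPM (-0.96, SE 0.39, adjusted p = 0.574).

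**Figure D4:**
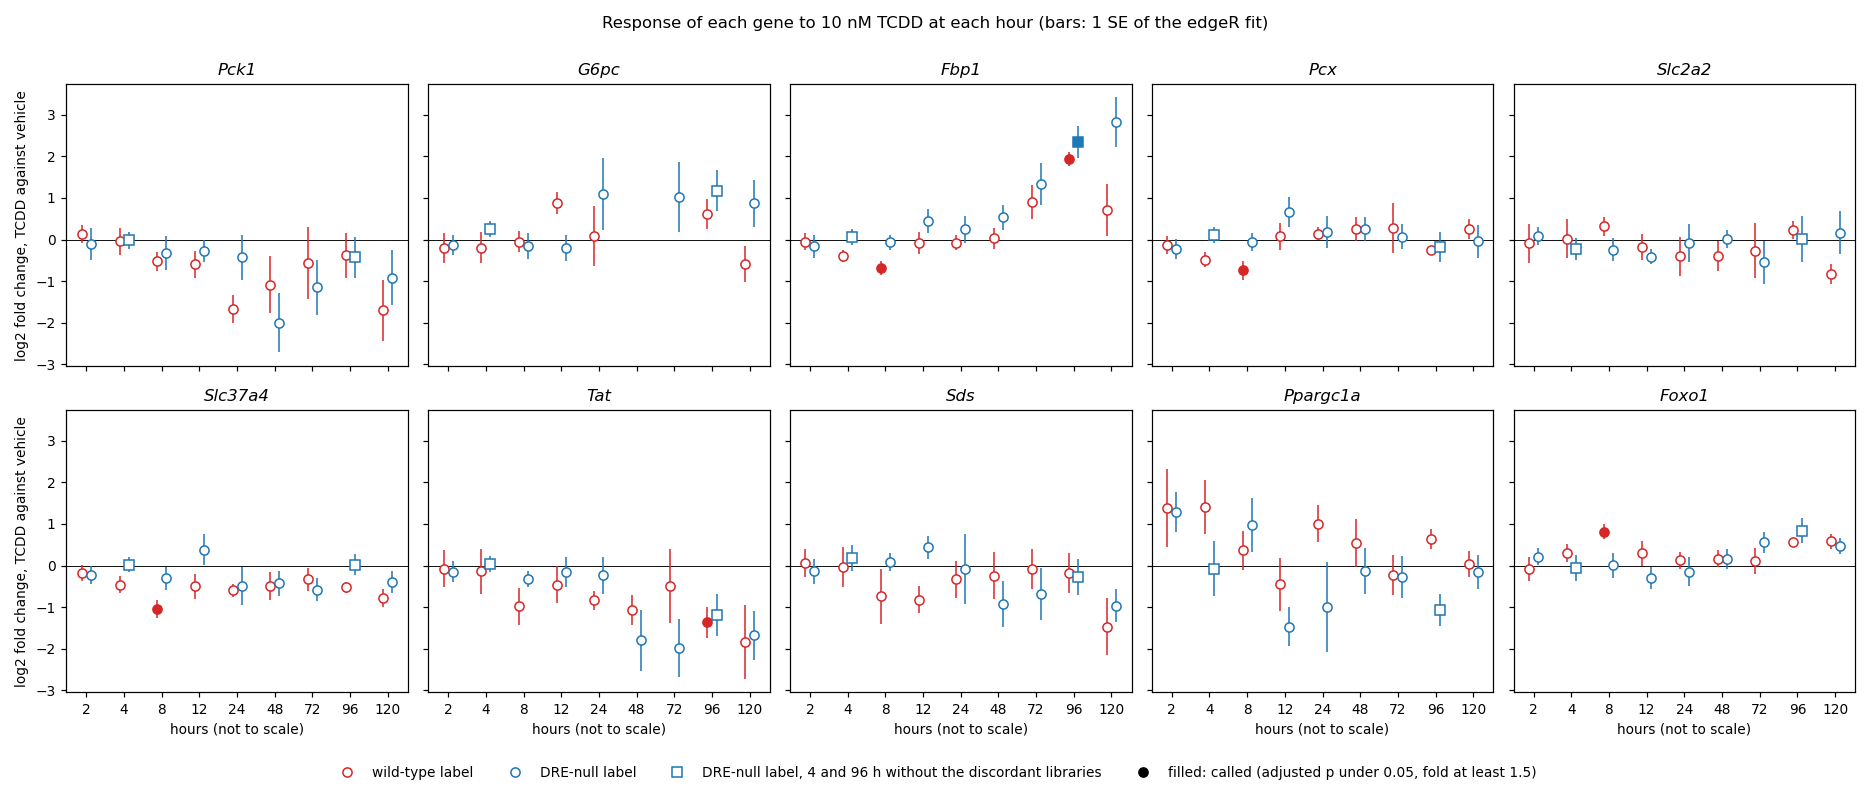
Log2 fold change of TCDD against vehicle from edgeR, with bars of 1 SE, for each gene at each hour (evenly spaced, not to scale), in WT (red) and PkmΔDRE (blue). Filled symbols were called, and squares at 4 and 96 h in PkmΔDRE are fits without the discordant libraries. *Fbp1* runs from -0.69 at 8 h to 1.93 at 96 h in WT, and most *Tat* and *Slc37a4* symbols lie below 0.

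At 4 h in PkmΔDRE, the discordant library stood apart in the same way. *Pck1* was at 285, 247, 219.8 and 1.74 CPM with vehicle and 334, 256, 233 and 179 CPM with TCDD. The last vehicle value, from that library, lay far below the 7 others. Without it, none of the 10 genes was called (1 of all genes, 0.00817%), and the log2 fold changes lay between -0.24 (*Slc2a2*) and 0.26 (*G6pc*).

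In PkmΔDRE, the main edgeR fits with all libraries called none of the 89 tests on these genes. Of these tests, 15 had an unadjusted p under 0.05, and DESeq2 called *Tat* at 96 h and *Fbp1* at 120 h. The *Tat* call rested on the discordant library, without which it was -1.19 (SE 0.50, adjusted p = 0.360) with edgeR and was not called by DESeq2 either (adjusted p = 0.542), while DESeq2 then called *Fbp1* at 96 h (2.36, adjusted p = 8.55e-09). *Tat* at 72 h was at 59.5, 97.8, 65.1 and 17.3 CPM with vehicle and 5.24, 30.3, 24.3 and 2.74 CPM with TCDD (-1.99, SE 0.70, adjusted p = 0.3), which overlapped. At 8 h, *Slc37a4* was at 317, 220.4, 324 and 564 and 394, 184, 272 and 304 CPM, *Fbp1* at 606, 623, 651 and 946 and 817, 559.9, 623 and 694 CPM, and *Foxo1* at 29.5, 54.1, 32.3 and 22.4 and 25.2, 44.8, 33 and 35.4 CPM. Their groups overlapped, with log2 fold changes of -0.31, -0.07 and 0.01.

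Whether the response to TCDD differed by label was tested itself, and none of the 90 tests was called by edgeR or by DESeq2, while 9 had an unadjusted p under 0.05. At 8 h, 0% of all 13333 genes were called, and the share at the other hours was also 0% except 0.00715% at 48 h and 0.00695% at 72 h. For *Foxo1* at 8 h the difference in log2 fold change (PkmΔDRE minus WT) was -0.92 (SE 0.35, adjusted p = 0.292), and for *Slc37a4* 0.61 (SE 0.36, adjusted p = 0.38). For *Fbp1* at 96 h it was -4.10 (SE 1.65) with all libraries and 0.38 (SE 0.43, adjusted p = 0.673) without the discordant library. The calls in WT alone are therefore not shown to differ from PkmΔDRE.

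Between the labels in vehicle, 1 of 88 tests was called. *G6pc* at 12 h was at 3.38, 4.96, 4.6 and 5.5 CPM in WT and 16.1, 7, 13.2 and 11.5 CPM in PkmΔDRE, with no overlap (1.40, SE 0.29, adjusted p = 0.032, PkmΔDRE against WT), where 3.68% of all genes were called (0.0576% at 8 h and 0% at the other hours) and 15.3% did not overlap. The call ended in 5 of 8 fits that left out 1 library: without WT replicate 2 or 3 or PkmΔDRE replicate 1, 3 or 4 (adjusted p from 0.0622 to 0.1269). *Ppargc1a* at 12 h was at 1.63, 0.225, 0.912 and 0.636 and 1.98, 3.4, 4.2 and 4.62 CPM, without overlap and without a call (2.11, SE 0.54, adjusted p = 0.0554). *Slc2a2* at 8 h was at 60.8, 70.2, 100.8 and 100.8 and 285, 224, 207 and 100.5 CPM, where only PkmΔDRE replicate 4 lay within the WT range (1.3, SE 0.28, adjusted p = 0.117).

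Under TCDD the enzymes and transporters also fell over time. Between 2 and 120 h, 8 of the 10 were called lower in each label, where 25.2% (WT) and 23.9% (PkmΔDRE) of all genes were, and neither *Foxo1* nor *Ppargc1a* was called. The log2 difference of *Pck1* in WT was -10.44 (SE 0.60) under TCDD and -8.66 (SE 0.73) under vehicle. For *Fbp1* it was -6.30 (SE 0.39) and -7.12 (SE 0.47) in WT, and -5.12 (SE 0.43) and -8.22 (SE 1.35) in PkmΔDRE. The difference between these courses was not tested as such.

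Genes outside the 10 followed them closely in vehicle-treated cells. For each of the 10, the 2 genes with the highest Spearman correlation of mean log2(CPM + 0.1) over the 18 vehicle groups were taken from 10745 genes, as a description of groups that share label, hour and the effects of the discordant libraries. *F2* (prothrombin, 1.0) and *Etnk2* (0.998) were nearest to *Fbp1*, *Nat8f1* and *Apoh* (both 0.992) to *Slc37a4*, and *Cyp2c68* (0.988) and *Cyp4f15* (0.979) to *G6pc*. *Tymp* (0.984) and *Apoe* (0.975) were nearest to *Pck1*, *Csf1r* (0.973) and *Amdhd1* (0.971) to *Tat*, *Zfp747* (0.971) and *Cyp2j5* (0.967) to *Slc2a2*, *Xirp1* (0.969) and *Egln3* (0.967) to *Pcx*, and *Adgrf1* (0.965) and *Trib1* (0.963) to *Sds*. The regulators had looser matches, with *Rabep1* (0.940) and *Nfat5* (0.938) for *Ppargc1a* and *Etv6* and *Tmem260* (both 0.851) for *Foxo1*. Without the discordant libraries, 8 of these 20 genes were again among the nearest.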

How the data were processed

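Hepatocyte RNA for 36 groups of 4 libraries was sequenced as unstranded paired-end reads. The authors aligned reads with STAR to GRCm39 and deposited the aligner's raw counts per gene of uniquely mapped pairs, 1 file per library, with no normalization (the submitters' notes name FastQC 0.11.3, Trimmomatic 0.39, STAR 2.7 and DESeq2). The unstranded count column was used, and lines that name no gene (16.8% to 48% of pairs, median 24.2%) were left out of library sizes. Unstranded counts cannot tell a gene from an overlapping antisense partner. Identifiers matched a symbol in GENCODE M21 (GRCm38) for 52083 of 55359 genes, and exon lengths came from that annotation. No position on GRCm39 is given, and promoters were taken from RefSeq's GRCm38.p6.

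CPM were computed on TMM-scaled library sizes of all libraries (13588848 to 30719161 counts, median 18011825). No library was a repeat of another in its own group (smallest chi-square per degree of freedom between replicates, 4.21). Libraries of different groups were not compared in this way. Tests used edgeR 4.0.16 (R 4.3.3) with TMM scaling, filterByExpr (count minimum 10, total minimum 15), the robust quasi-likelihood test and Benjamini-Hochberg adjustment over all genes tested, and every adjusted p in the text is from it unless DESeq2 is named. TCDD was compared with vehicle in 18 fits of 8 libraries, hours within 1 fit of the 36 libraries of a label and treatment, and the labels in 9 fits of the 4 groups of an hour (response) or the 2 vehicle groups. A call was a change of 1.5-fold or more at an adjusted p below 0.05. The code was tested on simulated data. Alternatives were relative log expression (RLE) scaling, DESeq2 1.42.0, no count filter, no fold threshold, wider or narrower fits, 3 covariates (pairs on no gene, unmapped pairs, 1 surrogate variable from sva 3.50.0) and leaving out each library. Added after seeing the data were leaving out the discordant libraries (replicate 4 of PkmΔDRE vehicle at 4 and at 96 h), DESeq2 without them, and a block for order in the group.

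The labels give no replicate number, so replicates were numbered 1 to 4 in accession order within a group. The 10 genes, the other lists (enzymes, regulators, targets, glucose use, cell type markers) and the tests were chosen with earlier results of these data known. Named beside the 10 are up to 3 called genes per list and direction with the largest change, *Pkm*, *Cyp1a1*, and the 2 genes most like each of the 10. Values of some genes under this rule are not reported here. The labels and the methods differ on the plate format of the cultures.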

Additional observations from a re-analysis of the deposited data

Results flagged for a closer look

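In 37 of 360 groups of 4 libraries, 1 library lay farther from the others than Dixon's test at 95% allows, where chance gives about 18. Of the 37, 7 were in the discordant libraries. In replicate 4 of PkmΔDRE vehicle at 96 h, *Pck1* was at 165 CPM (others 1.79 to 4.81), *G6pc* at 83.5 (1.6 to 3.12), *Fbp1* at 1508 (11.4 to 31.8), *Slc37a4* at 459 (25.8 to 50), *Tat* at 1341 (44 to 211) and *Sds* at 137.2 (1.05 to 2.19). In replicate 4 of that label's vehicle at 4 h, *G6pc* was at 2.72 CPM (47.9 to 49.2).

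Of the enzymes in WT, *Pck1* was at 6.19 CPM in vehicle replicate 4 at 120 h (others 0.629 to 1.17) and at 0.154 in TCDD replicate 1 at 48 h (0.514 to 0.557). *G6pc* was at 0.403 CPM in vehicle replicate 4 at 72 h (0 to 0.0433), and *Fbp1* at 36 in vehicle replicate 2 at 120 h (4.17 to 9.44). *Pcx* was at 165 CPM in vehicle replicate 3 at 24 h (203 to 206), 732 in vehicle replicate 3 at 72 h (156 to 186), 146 in vehicle replicate 2 at 120 h (68.8 to 78.5) and 1783 in TCDD replicate 4 at 2 h (highest other 1228), a library whose *Cyp1a1* was low.

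Of the enzymes in PkmΔDRE, *Pck1* was at 2.66 CPM in TCDD replicate 4 at 48 h (others 0.560 to 0.774), and *Fbp1* at 946 in vehicle replicate 4 at 8 h (606 to 651). *G6pc* was at 94.6 CPM in vehicle replicate 2 at 2 h (165 to 171) and at 0.763 in vehicle replicate 4 at 48 h (0 to 0.106).

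*Slc2a2* stood high in replicate 3 of WT TCDD at 3 hours, at 521 CPM at 2 h (others 123.8 to 191), 381 at 4 h (99.3 to 139.3) and 96.5 at 24 h (21.5 to 30.2). In PkmΔDRE it was at 16.3 CPM in vehicle replicate 3 at 48 h (13.4 to 13.8) and 147 in TCDD replicate 1 at 8 h (181 to 183). *Slc37a4* was at 32.4 CPM in WT vehicle replicate 4 at 72 h (16.5 to 17.5).

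*Tat* was at 70.2 CPM in WT vehicle replicate 3 at 24 h (others 104.3 to 109.5), and under TCDD in WT at 23.8 in replicate 4 at 72 h (2.41 to 4.31), 72.7 in replicate 4 at 96 h (39.5 to 43.8) and 88.3 in replicate 3 at 120 h (11.7 to 13.5). In PkmΔDRE at 48 h it was at 84.5 CPM in vehicle replicate 4 (7.04 to 14.9) and 17.2 in TCDD replicate 4 (4.98 to 6.86). *Sds* was at 66.8 CPM in PkmΔDRE TCDD replicate 2 at 4 h (149 to 158) and 4.52 in TCDD replicate 4 at 24 h (0.446 to 0.643).

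*Foxo1* was at 66.4 CPM in WT vehicle replicate 3 at 24 h (others 41.4 to 43.8), 39.5 in PkmΔDRE vehicle replicate 1 at 12 h (47.4 to 48.7) and 52.5 in PkmΔDRE TCDD replicate 2 at 48 h (34.7 to 36.6). *Ppargc1a* was at 11.8 CPM in WT TCDD replicate 1 at 48 h (2.18 to 3.54).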

How the results depend on the processing

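A chosen part of the gene comparisons was followed through all settings. It held those called under a setting other than leaving out 1 library, and those whose groups did not overlap. TCDD differences of *Fbp1*, *Tat*, *Slc37a4* and *Foxo1* at 72, 96 and 120 h were added. Among these, 1902 values kept their direction and side of the threshold, 44 no longer passed it, 34 changed sign and the others passed it anew. Where a comparison held neither discordant library, the settings without them repeated the fit with all libraries. These repeats are in the counts, so 1902 overstates how many separate checks were made. TCDD called 6 differences among the 10 genes, 14 under DESeq2 (14 also without the discordant libraries), 6 to 9 under the other planned settings, 7 without the discordant libraries, and 5 to 8 when any 1 library was left out. The count was 40 for the vehicle course (37 to 43, and 39 to 42 without any 1 library), 16 for the TCDD course (16 to 17 in both) and 0 for the difference in response (0 to 0 without any 1 library). It was 1 for the labels in vehicle, 3 under DESeq2, 4 with no count filter, 2 with the no-gene share as covariate, and 0 to 2 without any 1 library. At 8 h in WT, *Slc37a4* and *Foxo1* were called under every setting, whereas *Fbp1* and *Pcx* were lost in 1 fit of 72 libraries and with a surrogate variable, and *Pcx* with the no-gene share. At 96 h in WT, *Tat* was lost with no count filter, in 1 fit of 72 libraries and with either share of pairs as a covariate. The cause was not tested.

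The labels give no numbers that pair the samples, so it is not known whether order within a group pairs them. In WT at 8 h, unmapped pairs made up 13.4%, 13.5%, 9.18% and 8.97% of pairs with vehicle, in order of replicate. With TCDD they made up 23.6%, 10.4%, 7.32% and 9.73%. Libraries at the same position deviated together with r over 0.1 in 51 of 72 pairs (median 0.256, range -0.308 to 0.837), and 31 correlated best with their own position, among them all of WT at 24 and 48 h, which is a hint from the data and not the design. With that order as a replicate block, TCDD called 16 differences (20 also without the discordant libraries). Shares of all genes called under the block are not given for these TCDD counts, so the rise is not shown to be particular to these genes. The 10 that came in were *Pck1* (-0.59) and *Tat* (-0.97) at 8 h, *Pck1* (-1.63), *Slc37a4* (-0.60) and *Tat* (-0.87) at 24 h and *Ppargc1a* (0.68) at 96 h in WT, and *Ppargc1a* at 2 h (1.29) and 12 h (-1.52), *Tat* at 72 h (-2.33) and *Fbp1* at 120 h (2.89) in PkmΔDRE. Without the discordant libraries *Fbp1* (2.62), *Tat* (-0.99), *Foxo1* (0.82) and *Ppargc1a* (-1.36) at 96 h in PkmΔDRE came in too, and the difference in response called 2 without those libraries, *Slc37a4* (0.60) and *Ppargc1a* (-2.08) at 96 h, where 12.6% of all genes were called.

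Most sign changes were TCDD differences of PkmΔDRE at 96 h. *Fbp1* went from -2.19 to 2.34 without the discordant libraries (also the value without replicate 4 of vehicle alone), 4.61 with the unmapped share, 2.10 with a surrogate variable, 1.66 with the block and 2.62 with the block and without those libraries. *G6pc* went to 1.17, 3.03, 0.87, 0.15 and 1.14 in the same order. DESeq2 without those libraries gave 2.36 (*Fbp1*), 1.20 (*G6pc*) and 0.049 (*Slc37a4*). *Slc37a4* went to 0.021 without those libraries, 0.14 with the block as well and 1.32 with the unmapped share, and *Pck1* (1.47) and *Sds* (1.94) also turned with that share. The difference in response of *Slc37a4* at 96 h became 0.50 without the discordant libraries (also without replicate 4 of PkmΔDRE vehicle) and 0.60 when the block was used as well. With the unmapped share, *Slc37a4* became 0.021 in PkmΔDRE at 120 h, and in WT at 72 h *Foxo1* became -0.49, *Slc37a4* 0.20 and *Tat* 2.68. *Foxo1* there was also -0.080 with a surrogate variable and -0.02 to -0.16 without vehicle replicate 4 or TCDD replicate 3, and *Tat* was 0.49 without vehicle replicate 4. *Tat* in PkmΔDRE at 12 h became 0.018 without TCDD replicate 2, and *Foxo1* between 2 and 120 h in PkmΔDRE vehicle -0.20 with the no-gene share. Leaving out any 1 library gave -2.59 to 2.34 (*Fbp1*), -2.73 to 1.17 (*G6pc*) and -2.47 to 0.021 (*Slc37a4*) in PkmΔDRE at 96 h, -1.96 to 0.50 for the *Slc37a4* response, -0.43 to 0.018 for *Tat* at 12 h, and -0.16 to 0.44 (*Foxo1*) and -1.92 to 0.49 (*Tat*) in WT at 72 h. None of these was called in the main edgeR fit with all libraries. With a covariate and all libraries, *Fbp1* in PkmΔDRE at 96 h was called under the unmapped share (adjusted p = 0.00809). It was also called there with a surrogate variable (adjusted p = 0.00169), as was *G6pc* under the unmapped share (adjusted p = 0.0155). With at most 4 libraries a group and few counts for *G6pc*, *Pck1*, *Sds* and *Ppargc1a* after 24 h, small differences were not detectable.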
